A study of Arabidopsis thaliana with 18 samples.

Results

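The genes described here are 41 Arabidopsis thaliana genes whose transcripts were most abundant in leaves 24 h after induction of an artificial microRNA against NAA50. They were chosen from the measured levels. A gene was kept if its mean in the NAA50 line at 24 h was at least 5 CPM (read counts scaled to a common library size by TMM) and at least 4 times the mean of each of the other 5 groups. At least 1 of 4 groups (the NAA50 line at 0 h, or the scrambled line at 0, 12 or 24 h) also had to reach 1 CPM. Of 23790 genes in the table, 41 met the rule, and 3 genes had been left out by name, of which 1 met the levels. With the same levels set for another group, 9 genes were found for the scrambled line at 24 h and 1 for the NAA50 line at 12 h. All 41 passed the filter on low counts, as did 18344 genes in all, and a gene high in 1 group passes more easily.

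The study used 2 transgenic lines, both carrying a dexamethasone-inducible artificial microRNA. In the NAA50 line the microRNA targets NAA50, and in the control line its sequence is scrambled. The plants, aged 4 weeks and kept under days with 8 h of light, received 50 µM dexamethasone as a spray and were sampled 0, 12 and 24 h later. Each of the 18 samples held 0.4 g of tissue from leaf 4 of 4 plants, so each is a pool. There were 3 samples per line and time. The labels name 1 line for each construct and do not say whether the samples of a group came from separate growths, so p-values measure the spread between these pools.

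NAA50 is an N-terminal acetyltransferase, an enzyme that adds an acetyl group to the first residue of newly made proteins. Of the 41 genes, 6 belong to families known from water deficit or abscisic acid. In that response abscisic acid binds its receptors, protein phosphatases are inhibited, and the released kinases act on bZIP transcription factors, which bind a promoter element called the ABRE. Other members inactivate hormones: CYP94B3 hydroxylates the active jasmonate conjugate, and GA2OX6 is a gibberellin 2-oxidase.

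NAA50 (AT5G11340) had 12.54, 3.683 and 3.429 CPM on average at 0, 12 and 24 h in the NAA50 line, against 13.94, 15.02 and 17.0 CPM in the scrambled line. Before induction the lines differed by -0.16 on the log2 scale (adjusted p = 0.664, edgeR quasi-likelihood test). The difference was -2.03 after 12 h (adjusted p = 5.38e-07), and after 24 h it reached -2.28 (adjusted p = 1.47e-07). Libraries held 10389333 to 12353330 counts. Scrambled 0 h library 2 had the lowest TMM factor (0.874) and the largest share of counts in its 10 most abundant genes (11.2%). NAA50 0 h library 3 stood apart in genes of dehydration, and NAA50 24 h library 3 was the lowest of its group for most members. Leaf mesophyll markers were abundant in every library, with summed levels of 14600 CPM or more. Summed root markers did not exceed 1.31 CPM and summed seed markers 0.0945 CPM.

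Across the 41 genes, the mean at 24 h in the NAA50 line ran from 5.35 to 1032 CPM (median 46.9). It was 4.11 to 360.4 times the scrambled mean at 24 h (median 10.7), 4.06 to 35.9 times the NAA50 mean at 12 h (median 6.69) and 5.07 to 229.7 times the NAA50 mean at 0 h (median 14.2). These folds were used to choose the genes and carry no test. In 40 of the 41, all 3 NAA50 24 h libraries lay above the other 15 libraries, a pattern held by 6.65% of the genes tested. The rule makes that pattern likely, so nothing is read from the count. In 6 genes the lowest NAA50 24 h library was at least 4 times the highest of the other 15. The share of all genes tested with that gap was not counted. The rule selects for such a gap too, so nothing is read from this count either. The next-highest group was the NAA50 line at 12 h for 26 genes, the scrambled line at 24 h for 10, the scrambled line at 0 h for 2, the scrambled line at 12 h for 2 and the NAA50 line at 0 h for 1.

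**Figure D1:**
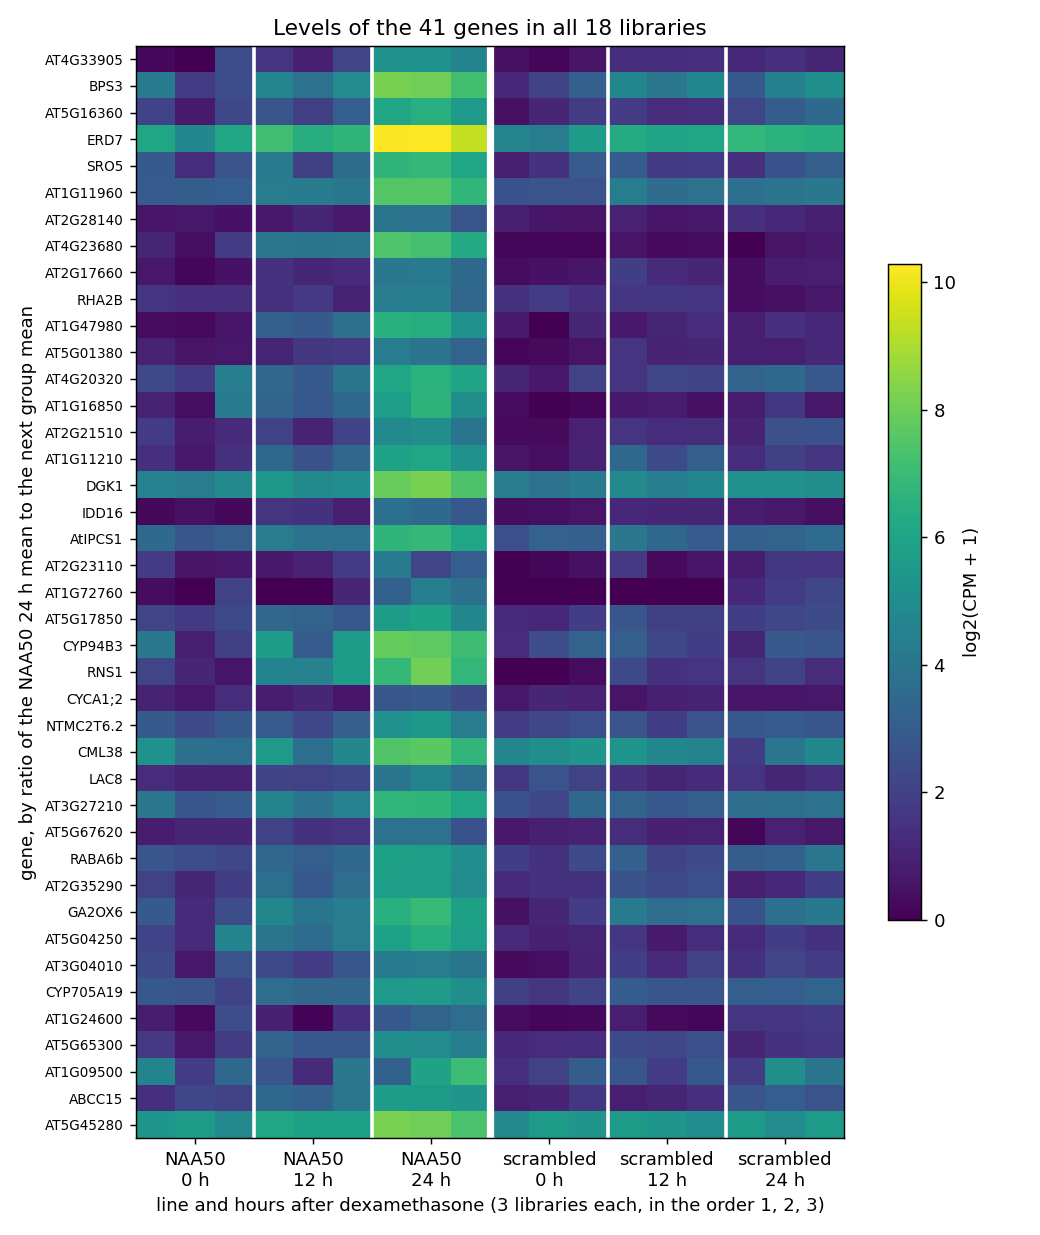
Level of each of the 41 genes (rows, by ratio of the NAA50 24 h mean to the next group mean) in each of 18 libraries (columns), as log2(CPM + 1). The NAA50 24 h columns are the brightest in nearly every row, and the NAA50 12 h group is the next highest in 26 of them.

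Of 8 promoter elements searched, the ABRE core had the widest gap in percentage points between its share among the members and that among all genes, and the G-box the largest ratio of the shares. The ABRE core (letters ACGTG, either strand) was in the 300 bases before the annotated start of 20 of 41 members, or 48.8%, against 25.5% of 27561 protein-coding genes. At least 2 cores were in 24.4% of members and 9.9% of those genes. A G-box (CACGTG), which holds 2 overlapping ABRE cores, was in 19.5% of members and 7.1% of those genes. The TGA core (TGACG) was in 41.5% and 21.3%, the NAC core (CGTGNA) in 34.1% and 22.3%, and the CRT/DRE core (CCGAC) in 22.0% and 13.9%. The W-box (TTGAC) was in 51.2% and 50.4%, the GCC box (GCCGCC) in 2.4% and 2.3%, and the heat shock element (GAANNTTC) in 5 of 41 members and 11.5% of those genes. All 41 members passed the filter on low counts, as did 17915 of those genes. Among these 17915 the shares were 26.4% for the ABRE core, 8.3% for the G-box and 22.3% for the TGA core. They were 22.8% for the NAC core, 15.3% for the CRT/DRE core, 50.1% for the W-box, 2.5% for the GCC box and 11.7% for the heat shock element. All these shares are descriptions without a test, and the ABRE, TGA and NAC motifs can overlap. Below are 3 of the 5 members with the most ABRE cores, 3 each, and AT4G33905, the member with the largest ratio, which has none. Sequences are from the RefSeq TAIR10.1 assembly, 5' to 3' on the gene's strand (minus for all 4), ending at the base before the gene, with ABRE cores in capitals.
AT1G11210: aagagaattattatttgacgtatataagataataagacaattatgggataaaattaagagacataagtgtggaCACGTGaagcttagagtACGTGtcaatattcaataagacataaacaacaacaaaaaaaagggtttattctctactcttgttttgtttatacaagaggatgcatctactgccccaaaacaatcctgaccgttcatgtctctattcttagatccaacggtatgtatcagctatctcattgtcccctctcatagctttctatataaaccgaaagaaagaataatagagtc
DGK1: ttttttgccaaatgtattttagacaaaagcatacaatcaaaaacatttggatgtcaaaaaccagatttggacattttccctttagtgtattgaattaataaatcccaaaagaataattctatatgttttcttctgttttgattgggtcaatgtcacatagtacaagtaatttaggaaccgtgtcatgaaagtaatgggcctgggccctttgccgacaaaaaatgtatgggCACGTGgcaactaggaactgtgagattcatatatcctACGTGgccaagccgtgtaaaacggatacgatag
NTMC2T6.2: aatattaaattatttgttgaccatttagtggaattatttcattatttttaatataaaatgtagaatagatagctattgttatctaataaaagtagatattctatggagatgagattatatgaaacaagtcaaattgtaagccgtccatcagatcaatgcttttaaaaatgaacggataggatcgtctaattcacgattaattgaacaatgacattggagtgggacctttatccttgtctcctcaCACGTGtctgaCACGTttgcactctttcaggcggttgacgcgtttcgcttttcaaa
AT4G33905: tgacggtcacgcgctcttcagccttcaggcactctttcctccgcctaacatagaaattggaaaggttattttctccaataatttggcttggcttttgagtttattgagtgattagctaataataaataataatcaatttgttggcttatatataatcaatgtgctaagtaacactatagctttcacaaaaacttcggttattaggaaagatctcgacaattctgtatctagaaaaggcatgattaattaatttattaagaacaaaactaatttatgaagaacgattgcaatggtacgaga

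The windows lie at chr1:3756999-3757298 (AT1G11210), chr5:2529422-2529721 (DGK1), chr3:4908068-4908367 (NTMC2T6.2) and chr4:16255761-16256060 (AT4G33905). In DGK1 the cores begin within 70 bases of the gene, at -70, -69 and -33, and in NTMC2T6.2 at -56, -55 and -45. In AT1G11210 they lie further out, at -227, -226 and -210. AT2G21510 is annotated as a DNAJ-domain protein, the family of HSP70 co-chaperones, and AT1G11210 as a DUF761 protein. DGK1 is a diacylglycerol kinase, which makes phosphatidic acid.

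The 6 members from families named for water deficit or abscisic acid had ratios to the next group from 5.78 to 9.43. ERD7, named as early-responsive to dehydration, was the most abundant of the 41 per length of transcript at 24 h in the NAA50 line (557.6 CPM per kb). It had 66.5, 26.4 and 66.9 CPM in the NAA50 libraries at 0 h, 140.5, 83.2 and 104.5 CPM at 12 h and 1209, 1246 and 641.7 CPM at 24 h. In the scrambled libraries it had 24.8, 19.2 and 51.0 CPM at 0 h, 78.7, 63.3 and 65.95 CPM at 12 h and 111.4, 94.8 and 83.3 CPM at 24 h. The NAA50 24 h libraries were all far above the rest, the NAA50 12 h libraries lay just above the scrambled 12 h ones, and the lines overlapped at 0 h. ERD7 was already higher at 12 h than at 0 h, by 1.03 ± 0.37 (log2, SE) in the NAA50 line (adjusted p = 0.0292, edgeR), a call lost without NAA50 0 h library 2 or NAA50 12 h library 1 (adjusted p up to 0.119). In the scrambled line it was higher by 1.12 ± 0.38 at 12 h (adjusted p = 0.0239), lost without any of 3 libraries (scrambled 0 h 1 or 2, scrambled 12 h 1; up to 0.113), and by 1.59 ± 0.38 at 24 h (adjusted p = 0.00243).

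AT1G11960, a protein of the ERD family, had 182.8, 182.7 and 107.3 CPM in the NAA50 libraries at 24 h, against 12.7, 14.7 and 16.45 CPM in the scrambled libraries at 24 h. Its 12 libraries at 0 and 12 h lay between 5.06 and 19.5 CPM. The level rose from 0 to 12 h in both lines, by 1.296 ± 0.214 in the NAA50 line (adjusted p = 1.26e-04) and 1.496 ± 0.225 in the scrambled line (adjusted p = 8.52e-05, edgeR). SRO5, of the SRO family related to RCD1, had 104.5, 115.1 and 67.65 CPM in the NAA50 libraries at 24 h, against 1.62, 5.099 and 7.58 CPM in the scrambled libraries. None of the 6 comparisons without the NAA50 24 h group called it. Its gene overlaps ALDH12A1 on the opposite strand by 905 bases (46.1% of the gene), and that neighbour had 82.4 CPM at 24 h in the NAA50 line against 70.2 CPM in the scrambled line. The libraries came from a stranded kit, but the strand setting of the counting is not given, so reads in the overlap cannot be assigned with certainty.

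RHA2B, a RING-H2 ubiquitin ligase known to act in abscisic acid signalling, showed a different course. It had 19.5, 19.9 and 9.60 CPM in the NAA50 libraries at 24 h, against 0.270, 0.364 and 0.570 CPM in the scrambled libraries, and 0.988 to 2.44 CPM in the other 12 libraries. In the scrambled line it fell between 0 and 24 h by 2.26 ± 0.43 on the log2 scale (adjusted p = 4.67e-04, edgeR), so part of its 40.7-fold ratio at 24 h lies in the low scrambled level. AT1G47980, a desiccation-like protein, had 0.255, 0.190 and 0.482 CPM at 0 h, 7.92, 6.51 and 12.8 CPM at 12 h and 92.2, 84.3 and 36.3 CPM at 24 h in the NAA50 line. In the scrambled line its 9 libraries lay between 0 and 1.64 CPM. AT2G23110, a group 6 late embryogenesis abundant protein, was unevenly high at 24 h in the NAA50 line, with 17.5, 3.50 and 7.52 CPM, against 0.721, 2.19 and 2.04 CPM in the scrambled line.

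Among 9 members linked to calcium, lipids or signalling, AT4G23680 had the largest ratio between the lines at 24 h. This polyketide cyclase and lipid transport superfamily gene had 1.104, 0.285 and 2.57 CPM at 0 h, 15.2, 14.6 and 15.2 CPM at 12 h and 173.1, 148.3 and 77.55 CPM at 24 h in the NAA50 line. In the scrambled line no library exceeded 0.652 CPM, and the group sums were 3, 10 and 13 reads at 0, 12 and 24 h. At 12 h it was higher in the NAA50 line by 5.54 ± 0.58 (log2, adjusted p = 2.96e-06, edgeR). Before induction the line difference was already 3.675 ± 1.004 (adjusted p = 0.170, edgeR), not called by edgeR but called by DESeq2. The line difference at 12 h less that at 0 h was 1.87 ± 1.92 (adjusted p = 0.509, edgeR) and was not called. CML38, a calmodulin-like protein, had 180.7, 198.5 and 108.3 CPM in the NAA50 libraries at 24 h, against 2.43, 15.3 and 26.9 CPM in the scrambled libraries at 24 h. Its 12 earlier libraries held up to 44.9 CPM and overlapped between the lines, and no comparison called it.

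DGK1 had 236.5, 285.8 and 169.1 CPM in the NAA50 libraries at 24 h, against 34.9, 35.9 and 32.8 CPM in the scrambled libraries. It was higher at 12 h than at 0 h in the NAA50 line by 0.57 ± 0.20 (adjusted p = 0.0291), a call lost with upper-quartile scaling or without any of 3 libraries (NAA50 0 h 1 or 2, NAA50 12 h 1; adjusted p up to 0.166), and at 24 h than at 0 h in the scrambled line by 0.996 ± 0.209 (adjusted p = 0.00102, edgeR). AtIPCS1, inositol phosphorylceramide synthase of the sphingolipid pathway, had 105.9, 114.5 and 65.6 CPM in the NAA50 libraries at 24 h, against 8.02, 8.65 and 11.16 CPM in the scrambled libraries. AT2G17660, of the RIN4 family, had 16.55, 17.7 and 10.8 CPM against 0.270, 0.729 and 0.815 CPM in the same comparison. RABA6b, a Rab GTPase of membrane traffic, overlaps AT1G18210 on the same strand by 468 bases (28.2% of the gene), and that neighbour was also at a higher level at 24 h in the NAA50 line (313.8 CPM against 61.2 CPM in the scrambled line), so its reads are uncertain.

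Both members that inactivate hormones were already above their 0 h level at 12 h in the NAA50 line. CYP94B3 had 16.1, 0.856 and 2.81 CPM at 0 h, 50.1, 6.98 and 51.0 CPM at 12 h and 233.5, 213.1 and 136.0 CPM at 24 h in the NAA50 line. The scrambled libraries held 1.498, 4.35 and 8.65 CPM at 0 h, 7.59, 3.62 and 2.63 CPM at 12 h and 1.08, 6.28 and 5.62 CPM at 24 h. NAA50 12 h library 2 was as low as the scrambled libraries, while the NAA50 24 h libraries were all high. At 12 h CYP94B3 was higher in the NAA50 line by 2.96 ± 0.87 (adjusted p = 0.0117, edgeR). Its rise from 0 to 12 h in that line, 2.43 ± 0.83 (adjusted p = 0.0235), was lost without any of 4 libraries (NAA50 0 h 2 or 3, NAA50 12 h 1 or 3; adjusted p up to 0.0803). The line difference of CYP94B3 at 12 h less that at 0 h was 2.51 ± 1.26 (adjusted p = 0.158, edgeR), not called.

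GA2OX6 had 91.4, 120.3 and 56.0 CPM in the NAA50 libraries at 24 h, against 4.96, 12.38 and 16.6 CPM in the scrambled libraries. Unlike CYP94B3, it was called higher against 0 h in every comparison of time that was tested. The rise was 2.25 ± 0.50 at 12 h in the NAA50 line (adjusted p = 0.00159), 3.34 ± 0.60 at 12 h in the scrambled line (adjusted p = 3.81e-04) and 2.996 ± 0.604 at 24 h in the scrambled line (adjusted p = 7.52e-04, edgeR).

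**Figure D2:**
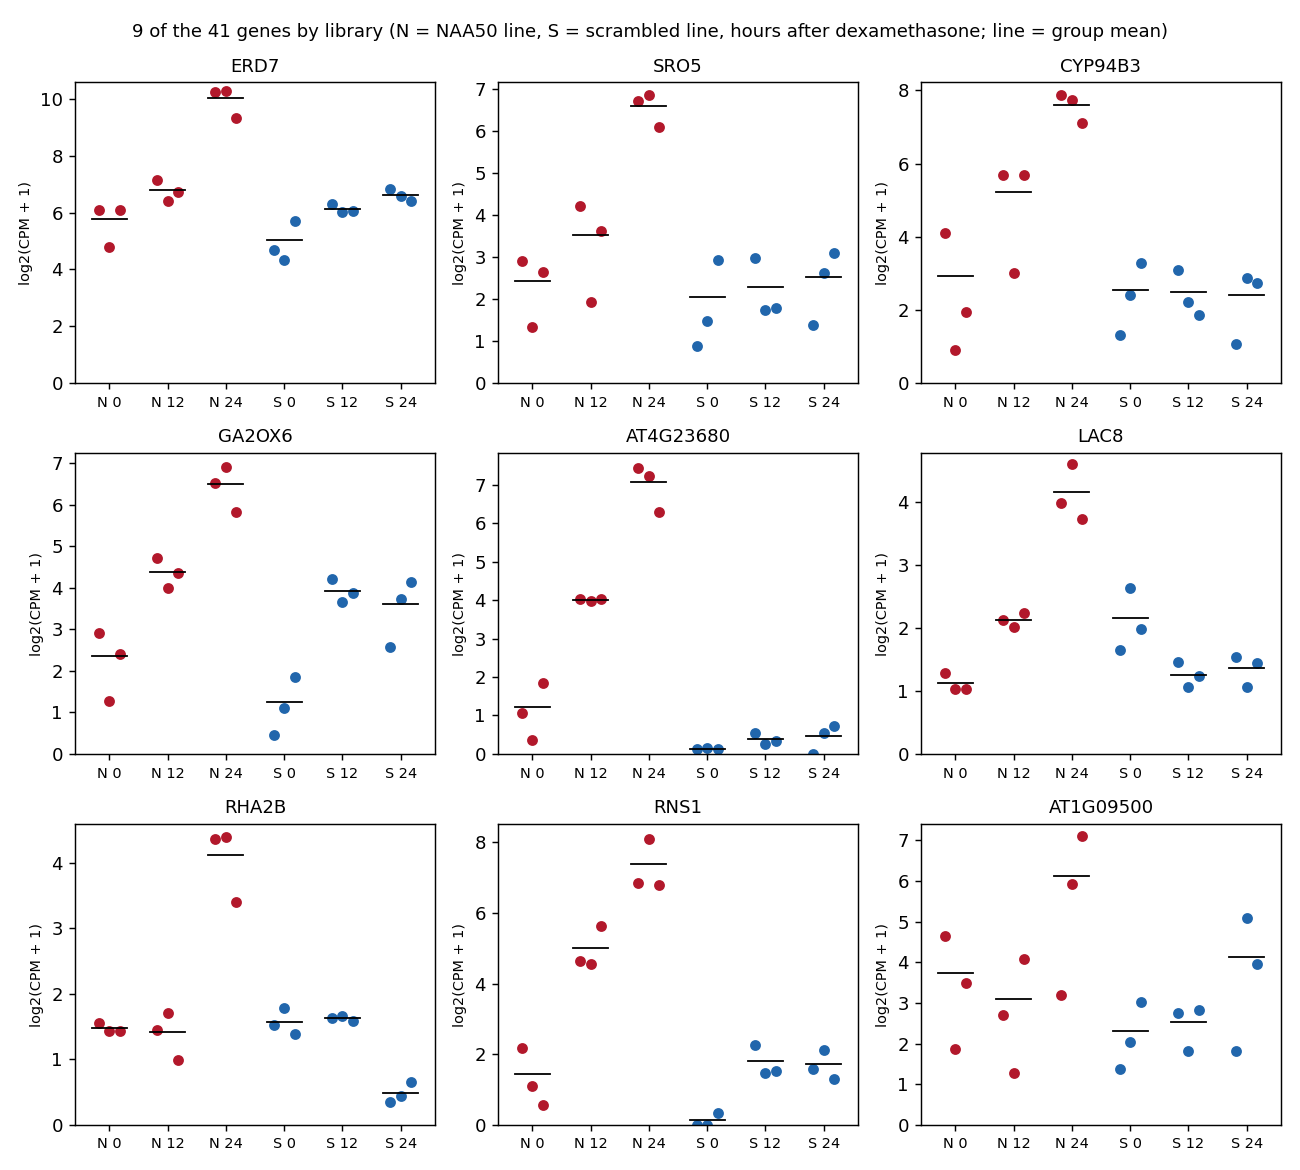
Levels of 9 members in each library, as log2(CPM + 1), for the NAA50 line (N, red) and the scrambled line (S, blue) at 0, 12 and 24 h, with the group mean as a line. AT4G23680 and RNS1 are intermediate at 12 h in the NAA50 line, RHA2B is lowest at 24 h in the scrambled line, and AT1G09500 overlaps between groups.

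The 9 enzymes, transporters and cell wall proteins had ratios to the next group from 4.06 to 7.425. RNS1, a secreted ribonuclease known from senescence, wounding and phosphate starvation, had 3.48, 1.14 and 0.482 CPM at 0 h, 24.07, 22.4 and 48.15 CPM at 12 h and 114.6, 275.4 and 109.8 CPM at 24 h in the NAA50 line. The scrambled line had 0, 0 and 0.270 CPM at 0 h, 3.84, 1.76 and 1.91 CPM at 12 h and 1.98, 3.37 and 1.47 CPM at 24 h. It was higher in the NAA50 line at 12 h by 3.64 ± 0.55 (adjusted p = 8.79e-05, edgeR). LAC8, a laccase, had 14.9, 23.15 and 12.21 CPM in the NAA50 libraries at 24 h, against 1.89, 1.09 and 1.71 CPM in the scrambled libraries. LAC8 rose from 0 to 12 h in the NAA50 line by 1.504 ± 0.350 (adjusted p = 0.00212), and in the scrambled line fell by 1.29 ± 0.35 (adjusted p = 0.00736, edgeR). Its fall at 24 h in the scrambled line, -1.13 ± 0.34 (adjusted p = 0.0113), was lost when library 2 of the scrambled 0 h or 24 h group was left out (adjusted p up to 0.0858).

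ABCC15, an ABC transporter of the multidrug resistance-associated group, had 49.65, 47.15 and 40.4 CPM in the NAA50 libraries at 24 h, against 5.59, 7.38 and 5.13 CPM in the scrambled libraries. At 12 h it was higher in the NAA50 line by 3.22 ± 0.36 (adjusted p = 5.12e-06, edgeR). Over 56.3% of its transcript it is 98.0% identical to ABCC9, which averaged 145.2 CPM at 24 h in the NAA50 line and 42.5 CPM in the scrambled line, so its counts are uncertain. CYP705A19, a cytochrome P450, had 45.8, 49.6 and 32.7 CPM in the NAA50 libraries at 24 h, against 7.66, 7.38 and 9.04 CPM in the scrambled libraries. CYP705A19 was higher in the NAA50 line at 12 h by 0.73 ± 0.21 (adjusted p = 0.0114, edgeR). Its line difference before induction was 0.81 ± 0.25 (adjusted p = 0.201) and its knockdown response at 12 h -0.09 ± 0.32 (adjusted p = 0.870), neither called by edgeR. AT5G45280, a pectin acetylesterase that acts on the cell wall, lay nearest the threshold, with 295.9, 265.7 and 164.8 CPM in the NAA50 libraries at 24 h, against 47.0, 30.4 and 47.65 CPM in the scrambled libraries.

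AT1G09500, an NAD(P)-binding protein, was the only member whose NAA50 24 h libraries did not all lie above the other 15. It had 8.18, 60.0 and 136.8 CPM there, against 2.52, 32.8 and 14.6 CPM in the scrambled libraries at 24 h. Just inside the ratio of 4 were AT5G45280 (4.06), ABCC15 (4.10) and AT1G09500 (4.11). Just outside it were AT5G42570 (3.93), IRX1 (3.93), a cellulose synthase of secondary walls, and AT4G21570 (3.89).

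The remaining members were 3 of transcription and the cell cycle and 12 of other or unknown role. AT4G33905, of the Mpv17/PMP22 family of small membrane proteins (chr4:16253752-16255760, minus strand), had 37.3, 37.6 and 23.9 CPM in the NAA50 libraries at 24 h, against 1.26, 1.64 and 1.14 CPM in the scrambled libraries. Of its other libraries only NAA50 12 h library 3 (3.46 CPM) and NAA50 0 h library 3 (4.33 CPM) exceeded 2 CPM. BPS3, annotated as BPS1-like, had 289.2, 267.3 and 143.9 CPM in the NAA50 libraries at 24 h, against 6.22, 20.8 and 33.5 CPM in the scrambled libraries. AT5G16360, with an NC domain, had 66.6, 88.3 and 46.1 CPM against 3.42, 7.10 and 10.6 CPM, and AT2G28140 had 14.5, 13.8 and 5.36 CPM against 1.62, 1.28 and 0.896 CPM. AT1G16850, annotated as uncharacterized, had 51.3, 99.3 and 33.6 CPM in the NAA50 libraries at 24 h, against 0.721, 2.19 and 0.570 CPM in the scrambled libraries. It was also high in 1 early library, with 1.02, 0.285 and 17.3 CPM at 0 h in the NAA50 line. CYCA1;2, an A-type cyclin known from meiosis, reached only 5.71, 6.24 and 4.09 CPM at 24 h in the NAA50 line, against 0.541, 0.546 and 0.570 CPM in the scrambled line.

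Members of the other families followed the same pattern at 24 h at lower or similar levels. Of the factors that bind DNA, IDD16 had 13.0, 10.3 and 6.03 CPM in the NAA50 libraries, against 0.721, 0.637 and 0.326 CPM in the scrambled libraries. AT5G01380, a homeodomain-like protein, had 19.8, 14.4 and 8.71 CPM against 0.811, 0.820 and 1.303 CPM. Both rose from 0 to 12 h in both lines: IDD16 by 2.69 ± 0.49 in the NAA50 line (adjusted p = 3.09e-04) and 1.71 ± 0.49 in the scrambled line (adjusted p = 0.0104), and AT5G01380 by 1.39 ± 0.46 (adjusted p = 0.0183) and 2.36 ± 0.59 (adjusted p = 0.0043, edgeR). The call of AT5G01380 in the NAA50 line was lost without any of 4 libraries (NAA50 0 h 2 or 3, NAA50 12 h 2 or 3; adjusted p up to 0.069).

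Of the signalling members, AT1G72760, a protein kinase, had 8.28, 20.2 and 12.9 CPM in the NAA50 libraries at 24 h, against 1.26, 2.46 and 3.50 CPM in the scrambled libraries, and no read in the 6 scrambled libraries at 0 and 12 h. AT5G17850, of the sodium/calcium exchanger family, had 50.0, 61.1 and 26.35 CPM against 2.70, 3.55 and 4.15 CPM. NTMC2T6.2, with a calcium-dependent lipid-binding domain, had 35.4, 43.2 and 19.05 CPM against 6.22, 7.01 and 5.78 CPM. In each of these the NAA50 and scrambled libraries at 24 h did not overlap, which the rule makes likely, so nothing is read from it. RABA6b had 55.8, 53.5 and 31.6 CPM against 7.21, 8.20 and 15.6 CPM.

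Of the enzymes, AT4G20320, of the CTP synthase family of pyrimidine metabolism, had 66.6, 94.4 and 63.6 CPM in the NAA50 libraries at 24 h, against 8.74, 10.38 and 5.86 CPM in the scrambled libraries. AT5G04250, of the cysteine proteinase superfamily, had 58.6, 84.0 and 52.9 CPM against 1.35, 2.64 and 1.87 CPM. AT3G04010, a family 17 glycosyl hydrolase, had 17.44, 19.0 and 14.96 CPM against 1.80, 3.46 and 2.44 CPM. At 12 h AT4G20320 was higher in the NAA50 line by 1.74 ± 0.64 (adjusted p = 0.0355), a call lost without any of 5 of the 6 libraries at 12 h (all but NAA50 12 h 2; adjusted p up to 0.1252), and AT5G04250 by 3.37 ± 0.77 (adjusted p = 0.00226, edgeR). Before induction the line differences, 2.46 ± 0.71 (adjusted p = 0.186) and 3.07 ± 0.82 (adjusted p = 0.158), were not called. The knockdown responses at 12 h, -0.72 ± 0.97 (adjusted p = 0.625) and 0.29 ± 1.22 (adjusted p = 0.885), were not called either.

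Members of other families or of no known role included AT3G27210, with 107.8, 105.9 and 65.3 CPM in the NAA50 libraries at 24 h, against 11.9, 12.29 and 13.6 CPM in the scrambled libraries. AT1G11210 had 58.6, 66.5 and 37.1 CPM against 1.53, 2.82 and 2.04 CPM, and AT2G21510 28.6, 33.3 and 14.8 CPM against 0.991, 4.83 and 4.97 CPM. AT2G35290 had 52.6, 53.0 and 30.5 CPM against 0.811, 1.18 and 2.77 CPM, and AT5G65300 33.8, 30.4 and 20.3 CPM against 1.08, 1.82 and 2.12 CPM. In each of these the groups did not overlap at 24 h, which the rule likewise makes likely. The least abundant were AT5G67620, with 13.2, 13.6 and 5.06 CPM against 0.0901, 0.911 and 0.570 CPM, and AT1G24600, with 6.11, 9.07 and 11.6 CPM against 1.98, 2.09 and 2.36 CPM. AT1G24600 is a short gene that had 4.33 CPM in NAA50 0 h library 3.

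The members lay on all 5 nuclear chromosomes, with 12, 8, 7, 4 and 10 on chromosomes 1 to 5. The nearest neighbours among them, AT2G17660 and ERD7, were 81893 bases apart. Their transcripts had a median length of 1479 bases and 3 exons, beside 1759 bases and 5 exons over all genes tested with a model, and 7 of 41 had 1 exon, beside 14.9% of those genes.

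Comparisons between groups other than NAA50 24 h show what the members did elsewhere. Their scaling and spread were still estimated from all 18 libraries, those of NAA50 24 h included. In the NAA50 line 21 of 41 were higher at 12 h than at 0 h and 0 lower, beside 26.2% and 24.4% of all genes tested. At 12 h 14 of 41 were higher in the NAA50 line than in the scrambled line and 0 lower, beside 21.9% of all genes higher and 4466 of 18344 lower. In the scrambled line 13 were higher and 1 lower at 12 h than at 0 h (23.7% and 20.5% of all genes), and 19 were higher and 2 lower at 24 h (27.6% and 26.5%). Thus 23 members rose in the control line at 12 or 24 h, and the label of rising only at 24 h in the knockdown holds for the 4-fold rule and not for the test. No comparison called 9 members: AT4G33905, NTMC2T6.2, AT1G09500, CML38, CYCA1;2, SRO5, AT5G67620, AT2G28140 and AT5G45280. The shares of all genes higher at either time in the scrambled line, or called in no comparison, were not counted. The counts of 23 and 9 are therefore not set against all genes.

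The median log2 difference of the members was 1.05 for 12 h against 0 h in the NAA50 line, beside 0.00527 for all genes. It was 0.725 between the lines at 12 h, beside -0.0307. In the scrambled line it was 0.877 at 12 h (0.893 without AT1G72760, which had no read at 0 or 12 h), beside 0.012, and 1.5 at 24 h, beside -0.00277. With AT1G72760 at its bound, at least 8.31-fold higher at 24 h against a floor of 3 counts per library, the 24 h median was also 1.5. At 0 h edgeR called 0 members in either direction (0.0872% of all genes higher, 0.0109% lower), with 14 higher and 1 lower at an unadjusted p under 0.05 (8.05% and 5.22% of all genes) and 6 higher and 1 lower by DESeq2 (1.51% and 0.139%). The median at 0 h was 0.745, beside 0.00428 for all genes.

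**Figure D3:**
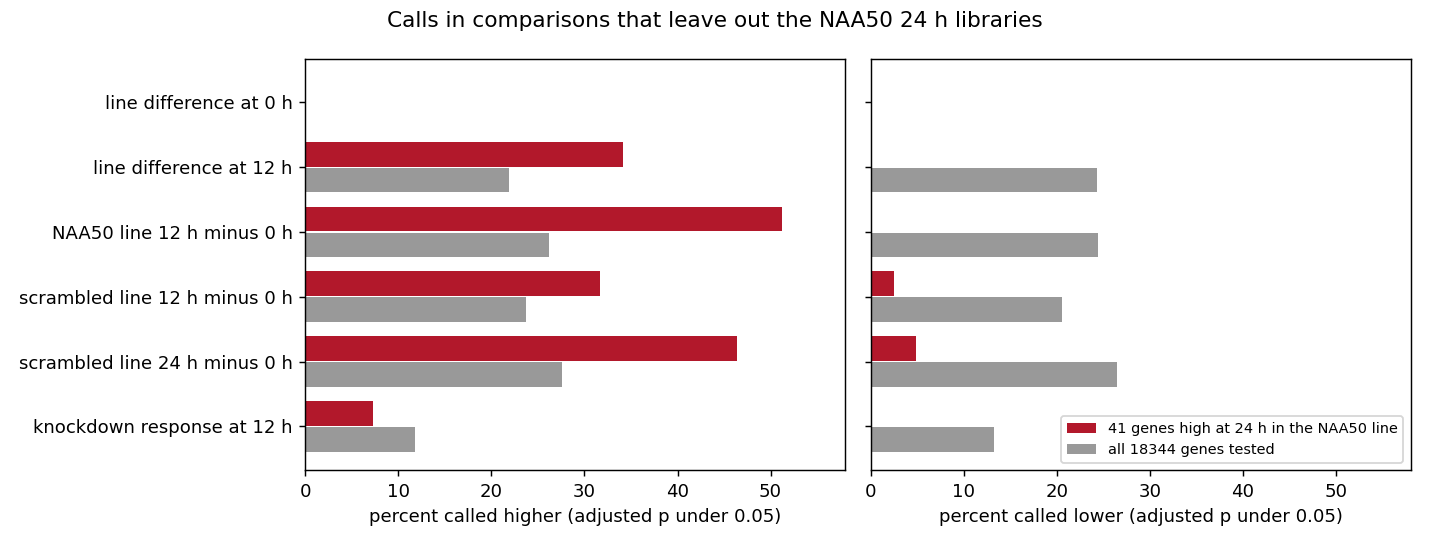
Percent of the 41 members (red) and of all 18344 genes tested (grey) called higher (left) or lower (right) in 6 comparisons between groups other than NAA50 24 h. Members exceed all genes in the share called higher for 12 h against 0 h in the NAA50 line (21 of 41, beside 26.2%). In the scrambled line 13 members are higher at 12 h (beside 23.7%) and 19 at 24 h (beside 27.6%) against 0 h. Between the lines at 12 h 14 are higher (beside 21.9%), and 3 for the knockdown response (beside 11.8%). Leaving out 1 library gives 9 to 15, 13 to 22, 10 to 17 and 1 to 4 for these counts, in that order. Small gaps to all genes are therefore not read. Few members are called lower anywhere.

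The knockdown response at 12 h is the difference between the lines after 12 h less the difference they had before induction. It was higher in 3 members (LAC8, ABCC15 and AT1G47980) and lower in 0, beside 11.8% and 13.2% of all genes. Its median over the members was -0.0879, beside -0.0585. The count was 1 to 4 when a library was left out, so nothing is read from its gap to all genes. The members' median line difference was 0.725 at 12 h and 0.745 before induction. At 0 h edgeR called 0 members, and the NAA50 0 h libraries were uneven.

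Within the NAA50 24 h group, library 3 was the lowest in 37 of 41 members, while it was the lowest in 44.7% of all genes over 5 CPM. Members stood at a median of 1.11, 1.19 and 0.687 times their group mean in libraries 1, 2 and 3. NAA50 itself had 2.36, 3.31 and 4.61 CPM in these libraries, from 24, 35 and 62 reads. Library 3, with the most NAA50 transcript, had the least of most members. Library 1, with the least NAA50 transcript, was the highest in 14 members and library 2 in 25, beside 39.5% and 33.1% of all genes over 5 CPM. With 3 libraries this is a description, and a relation between NAA50 and the members was not tested. Library 3 was not the lowest for AT1G09500, AT2G23110, AT1G72760 and AT1G24600. Without library 3 the rule found 52 genes.

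**Figure D4:**
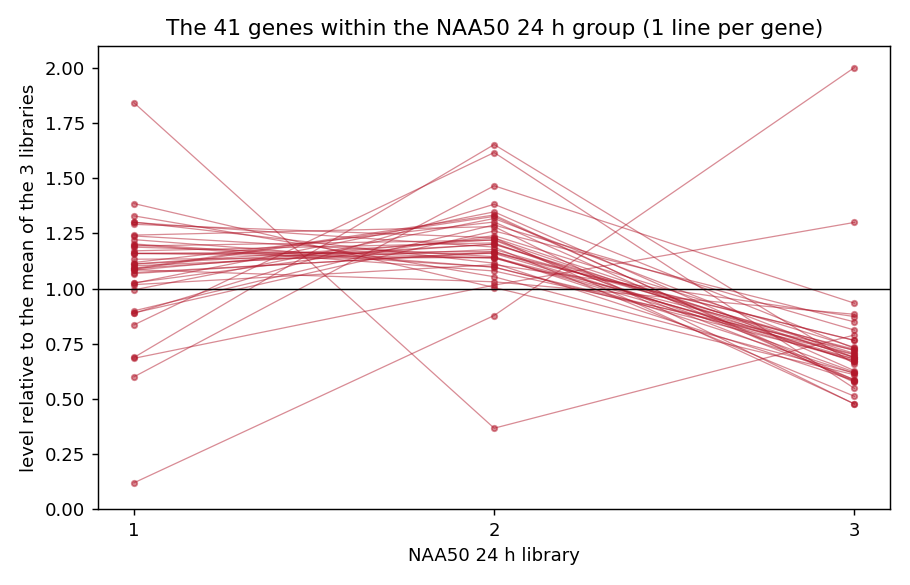
Level of each of the 41 members in the 3 NAA50 24 h libraries, relative to their mean (1 line per gene). Most lines drop at library 3, where the median is 0.687, and AT1G09500 runs the other way, to 2 times the mean.

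The NAA50 line at 0 h was also uneven. Library 3 was at least 3 times the next library for 6 members (AT4G33905, AT1G16850, AT1G72760, AT5G04250, AT1G24600 and AT4G20320), and library 1 for 4 (CYP94B3, BPS3, AT2G23110 and RNS1). All 15 tested genes of a list of abscisic acid dehydration proteins were highest in library 3. Of 26 jasmonate genes, 14 were highest in library 1 and 23 lowest in library 3. The dehydration list summed to 1248, 1105 and 4047 CPM in NAA50 0 h libraries 1, 2 and 3. In the NAA50 24 h libraries it summed to 5850, 7408 and 3907 CPM, so library 3 at 0 h lay above library 3 at 24 h. Without NAA50 0 h library 3 the rule found 50 genes, 21 members were higher at 12 h than at 0 h in the NAA50 line, of which 17 were among the 21 called with it, and 0 differed between the lines at 0 h (edgeR).

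Other genes of the related pathways were read from 21 lists, for the line difference at 24 h and without the members. Of 275 list genes tested, 92 were higher and 40 lower in the NAA50 line, beside 23.9% of all genes higher and 4416 of 18344 lower. Dehydration proteins were higher in 11 of 15 and lower in 0, with a median of 3.09 (log2), against -0.0331 for all genes. LEA14 averaged 825.4 ± 263 CPM in the NAA50 line and 111.4 ± 18.5 CPM in the scrambled line (SD, n = 3 each; adjusted p = 1.16e-06, edgeR), and ERD14, a dehydrin, 1586 ± 408 and 526.4 ± 20.2 CPM (adjusted p = 1.41e-05). The count of 11 fell to 7 without NAA50 24 h library 2 or scrambled 24 h library 1. Before induction, NAA50 0 h library 3 already had a summed level of these genes (4047 CPM) above that of NAA50 24 h library 3 (3907 CPM).

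Genes of abscisic acid synthesis and signalling were higher in 20 of 29 and lower in 1. NCED9, of the family that commits carotenoids to abscisic acid, averaged 12.23 ± 5.06 CPM in the NAA50 line and 0.145 ± 0.137 CPM in the scrambled line (adjusted p = 3.46e-06, edgeR). ABI2, a phosphatase that restrains the pathway, averaged 151.0 ± 21.4 and 25.2 ± 5.52 CPM (adjusted p = 4.72e-05). Of jasmonate genes other than CYP94B3, 7 of 26 were higher and 2 lower, a share higher near the 23.9% of all genes. The 2 with the smallest adjusted p were the repressor genes JAZ10 (126.7 ± 27.1 CPM in the NAA50 line and 3.61 ± 2.17 CPM in the scrambled line, adjusted p = 6.31e-06) and JAZ1 (508.4 ± 121 and 67.9 ± 30.5 CPM, adjusted p = 1.27e-04). Genes of salicylic acid immunity were higher in 0 of 22 and lower in 12 (median -1.52). WRKY70, a transcription factor of that response, averaged 284.9 ± 91.9 CPM in the NAA50 line and 847.1 ± 259 CPM in the scrambled line (adjusted p = 5.25e-04, edgeR).

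**Figure D5:**
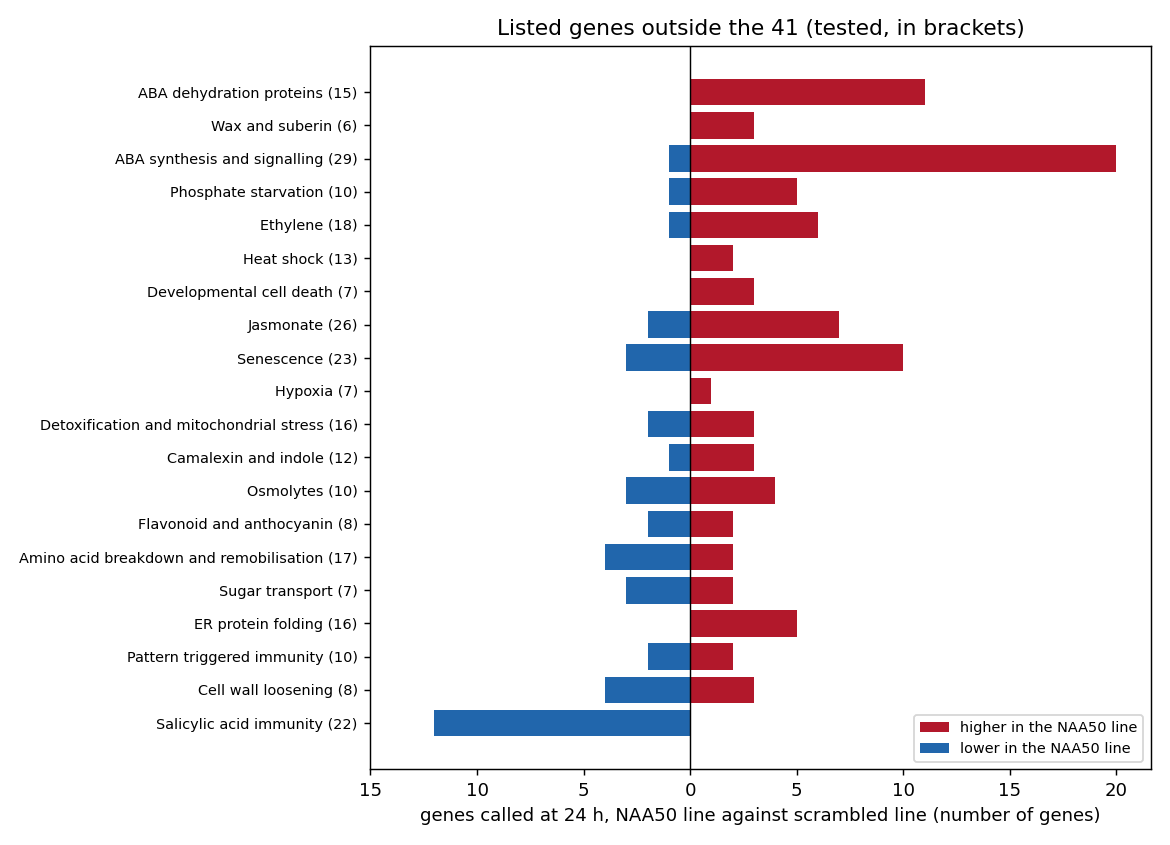
Number of list genes outside the 41 called higher (red, to the right) or lower (blue, to the left) in the NAA50 line than in the scrambled line at 24 h, with the number tested in brackets and lists ordered by median log2 difference. Dehydration proteins (11 of 15 higher) are at the top and salicylic acid immunity (12 of 22 lower) at the bottom.

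Summed markers of xylem were higher in the NAA50 24 h libraries than in the other 15, and those of phloem overlapped with the NAA50 12 h libraries. The 7 xylem markers measured summed to 115 to 158 CPM in the NAA50 24 h libraries, against 21.8 to 56.8 CPM in the others. The 5 phloem markers summed to 760 to 1140 CPM, against 456 to 809 CPM, and none of either list was at 0 throughout. Summed guard cell markers were 32.6 to 35.3 CPM in the NAA50 24 h libraries, near the 33.9 to 35.7 CPM of the NAA50 0 h libraries and the 25.5 to 32.5 CPM of the NAA50 12 h libraries, against 53.2 to 62.6 CPM in the scrambled 24 h libraries. Summed epidermis markers were 681 to 1130 CPM in the NAA50 24 h libraries, against 402 to 508 CPM in the scrambled 24 h libraries, and the NAA50 0 h libraries lay at 697 to 865 CPM. Mesophyll markers summed to 14600 to 18600 CPM in the NAA50 24 h libraries and 19900 to 32200 CPM in the scrambled 24 h libraries. In whole leaves, fewer cells of a type and less RNA per cell cannot be told apart, and the part of cell makeup in the members' levels was not tested.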

How the data were processed

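RNA of 18 leaf pools was sequenced from stranded mRNA libraries, per the labels' protocols. The authors deposited raw counts per gene (23790 genes), which are whole numbers with totals that differ between libraries. The submitters' processing notes name Trimmomatic, STAR, DESeq2 and TAIR10. How reads were counted, and whether by strand, is not given in the sources used. Symbols and products came from the RefSeq TAIR10.1 annotation, which held 23500 of the gene identifiers (98.8%).

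Tests used edgeR 4.0.16 in R 4.3.3. The low-count filter was filterByExpr (minimum count 10, minimum total 15), which left 18344 (77.1%). Libraries were scaled by TMM, and a model with 1 mean for each group was fitted over the 18 libraries, with 12 residual degrees of freedom and a common biological coefficient of variation of 18.16%. Contrasts were tested by the quasi-likelihood F test, two-sided, with Benjamini-Hochberg adjustment over all genes tested. A gene was called at an adjusted p under 0.05. SEs were taken as the absolute log2 difference over the root of F. The fit was tested on simulated data. A count of 0 allows up to 3 counts, and such floors cover counting error only. CPM is TMM-scaled throughout.

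The members, lists and tests were chosen with earlier results of these data known. Genes named in the text were the 10 members with the largest ratio, up to 4 members of each list, the top calls of each comparison, the members and genes nearest the threshold and the 3 with the widest spread at 24 h. Other members described by role (CML38, DGK1, AtIPCS1, RABA6b, CYCA1;2, AT4G20320, AT5G04250, AT1G72760, AT1G24600, AT2G21510 and NTMC2T6.2 among them) were chosen after their values were seen, as were the role groups. Of list genes, up to 2 with the smallest adjusted p were named per list. Motifs were searched on both strands (1 promoter sequence is not reported here), and transcripts were compared with BLAST 2.17.0. Alternatives were DESeq2 1.42.0, other scalings, no filter, other thresholds, a replicate block and leaving out each library.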

Additional observations from a re-analysis of the deposited data

Results flagged for a closer look

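In 3 members the change from 0 to 12 h differed between the lines by the test of the difference itself (edgeR quasi-likelihood interaction, 3 libraries per group). For LAC8 the difference was 2.80 ± 0.50 on the log2 scale (SE, adjusted p = 9.46e-04), with a change of 1.504 in the NAA50 line and -1.29 in the scrambled line. Its line difference was -1.53 ± 0.355 before induction (adjusted p = 0.116, edgeR), not called by edgeR but called by DESeq2. At 12 h the line difference of LAC8 was 1.27 ± 0.345 (adjusted p = 0.00738, edgeR). For ABCC15 the difference in change was 2.20 ± 0.56 (adjusted p = 0.0101), with a change of 2.01 in the NAA50 line. For AT1G47980 it was 4.08 ± 1.08 (adjusted p = 0.0129), with a change of 4.79 in the NAA50 line. The calls of ABCC15 and AT1G47980 were lost without scrambled 0 h library 3 (adjusted p = 0.0657 and 0.114), and that of LAC8 was kept under all 23 alternatives (adjusted p up to 0.00344).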

How the results depend on the processing

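The number of genes found by the rule was 41. It was 16 when every NAA50 24 h library had to reach 4 times the highest other mean, 97 at a ratio of 3 and 19 at a ratio of 6, with 61 by group medians and 57 without the least level of 1 CPM in another group. It was 39 with library totals (37 shared) and 41 with DESeq2 size factors (41 shared). Leaving out each library in turn gave 32 (without NAA50 12 h library 2) to 52 genes (without NAA50 24 h library 3). Members called by leaving out a library ranged from 10 to 17 higher for the line difference at 12 h, 15 to 22 for 12 h against 0 h in the NAA50 line, 9 to 15 for 12 h and 13 to 22 for 24 h against 0 h in the scrambled line. For the last, 1 to 3 were lower (1 when library 2 of the scrambled 0 h or 24 h group was left out). The knockdown response at 12 h had 1 to 4 higher and 0 to 1 lower, with 1 higher without scrambled 0 h library 3. The line difference at 0 h had 0 to 3 higher and 0 to 1 lower, and 6 and 1 with DESeq2. List genes at 24 h ranged from 71 to 96 higher and 30 to 47 lower.

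The replicate numbers did not pair the samples: of 45 correlations of deviations between same-numbered samples, 21 were above 0.1 (range -0.558 to 0.443), and 2 of 15 group pairs had all 3 above it. With the replicate block, members higher numbered 13 at 12 h between the lines and 20 at 24 h in the scrambled line, 48 list genes were lower, and the other counts of members were as without it. AT5G16360 lost its call at 12 h between the lines under the block and without any of 8 libraries (adjusted p up to 0.152). Over every member called in a comparison without the NAA50 24 h libraries and the 2 genes of smallest adjusted p of each list at 24 h, 2469 tests kept their call, 84 lost it and 0 reversed.

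Library totals moved the median of all genes by up to 0.169 (log2, line difference at 12 h, to 0.139), and with them 5442 of 8535 genes called there were higher, against 4018 higher and 4466 lower with TMM. Upper-quartile scaling gave medians of -0.109 and -0.127 for 12 h and 24 h against 0 h in the scrambled line, with 3548 of 8603 genes called at 12 h higher, against 4342 higher and 3767 lower with TMM. Members called at 12 h between the lines were 19 with library totals. Levels under about 0.3 CPM rest on 3 counts or fewer.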
